A study of Mus musculus with 32 samples.

Results

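Cells that a PDGFRA antibody gate collected from mouse gliomas held under a CSF-1R inhibitor were compared with cells from the same gate in vehicle-treated gliomas. All 11 libraries of these 2 groups, of the 32 libraries of the series, were taken by stage and sorted population in the labels: 6 Endpoint libraries (mice 49823, 49825, 49830, 49831, 49843 and 49845) and 5 Vehicle libraries (mice 54359, 54363, 57098, 57682 and 64247). Every mouse was an XFM mouse, a strain for which the labels give no genotype, and received DF-1 cells carrying PDGFB into the brain at 5 to 6 weeks of age. DF-1 is a chicken fibroblast line, here the carrier of PDGFB, the growth factor that starts the tumour. Endpoint mice got BLZ945, which blocks the kinase CSF-1R on macrophages, daily once the tumour measured 20 to 40 mm3, and their tumours are called dormant. Vehicle mice got vehicle, and for both groups treatment ran until symptoms or the age of 26 weeks. The agent label reads BLZ945 in Vehicle libraries too, so treatment was read from the stage. The ages at which single mice were killed and their sex are not among the labels.

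PDGFRA is the receptor of oligodendrocyte progenitors and of the glioma cells that PDGFB drives. Binding of the ligand starts the RAS and ERK cascade, which switches on immediate early genes, cyclin D1 and its own inhibitors, the Sprouty proteins and dual-specificity phosphatases. Normal brain cells also bear PDGFRA, among them resident progenitors and fibroblasts of the meninges and choroid plexus.

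Total counts were 4.18 to 14.0 M in Endpoint libraries and 13.1 to 22.99 M in Vehicle libraries. Every deposited count of the Endpoint libraries is even, and divided by 2 they sum to 2.09 to 7.01 M. In Vehicle libraries 50.5 to 51.6% of the nonzero counts are odd. Evenness thus goes with treatment, and a difference in how counts were made cannot be told apart from the stage. Halving the even counts, tried as an alternative, changes their scale only. The ribosomal precursor Rn45s took 6.35 to 16.9% of the counts at Endpoint and 0.875 to 11.1% in Vehicle. Endpoint mouse 49843 had both the lowest total, 4.18 M, and the highest Rn45s share, 16.9%, against 6.35 to 7.80% in the other 5. In its library 3 counts make 0.795 CPM, so its values near 0 are coarse. Endpoint mouse 49843 stood apart from the other 5 in tumour genes, and mouse 49845 was highest in choroid plexus genes, so counts that either of them changes by over 1.5 times are also given without it. Levels are CPM (counts scaled to library size) after TMM scaling, a change is a log2 fold change of Endpoint over Vehicle with its standard error (SE), means are given with their SD over 6 Endpoint and 5 Vehicle mice, and a gene is called at an adjusted p under 0.05 in edgeR's quasi-likelihood test.

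The labels give every library a mouse of its own, but in 3 Vehicle libraries, 54359, 54363 and 64247, both Xist, which the inactive X chromosome expresses, and the Y-linked gene Ddx3y were present, at 24.9 to 143 CPM and at 19.2 to 41.7 CPM. The TAM libraries of the same 3 mice held Xist at 1.91 to 3.71 CPM, and whether cells or RNA of another mouse are in these 3 libraries was not tested. Without them, a setting chosen after seeing the data that leaves 2 Vehicle libraries, edgeR called 2023 genes against 4305 with them. Of the 4305 genes, 4298 kept the sign of their change and 1640 were called in the same direction. Counts of lower genes in that setting were 12 for the tumour and oligodendrocyte lineage, 19 for G1/S and DNA replication, 8 for G2/M and mitosis, 9 for PDGF and ERK output, 14 for glutamate receptors and synaptic adhesion and 8 for cholesterol synthesis. At an unadjusted p under 0.05, 26 of the G2/M genes were lower. Choroid plexus genes had 12 higher (21 at an unadjusted p under 0.05) and ependymal genes 2 (12). No gene was called higher among T and NK cells (9 at an unadjusted p under 0.05), B cells (5), MHC class I presentation (4), endothelial cells (4), pericytes and fibroblasts (3), or cytokines and chemokines (3). In each of the other lists at most 6 genes were called in either direction. Of the 70 called genes named here, 32 lost their call.

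Tumour and oligodendrocyte lineage genes had the lowest median of the 34 gene lists. Of 24 listed genes, 17 were lower at Endpoint and 0 were higher, with a median log2 fold change of -2.73, and without mouse 49843 the count was 23 (15 to 17 without any other library). Over all 14985 genes tested, 28.7% were called, 14.0% higher and 14.8% lower, and the median was 0.03. In bulk RNA, fewer cells of a type and less RNA per cell cannot be told apart.

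Pdgfra itself (chromosome 5, 75152292 to 75198215, plus strand, GRCm38) ran at 57.9 to 550 CPM (median 106) in the 6 Endpoint libraries, against 1571, 447, 2837, 3675 and 1414 CPM in Vehicle libraries. Its level was thus lower in libraries of cells sorted for its protein (-3.53 ± 0.65 SE on the log2 scale, edgeR adjusted p = 0.00183). The part of RNA from other cell types in this difference was not tested. The highest Endpoint library, 49843, lay above the lowest Vehicle library, and the other 5 Endpoint libraries, at 135 CPM or less, lay below them all. Olig2, a factor that sets the oligodendrocyte lineage, ran at 0 to 31.8 CPM (median 1.75) at Endpoint, against 112, 94.7, 113, 117 and 140 CPM in Vehicle (-4.24, SE 1.05, adjusted p = 0.00927). The groups did not overlap. Olig1, its neighbour and partner in the lineage, was 30.02, 24.8, 41.6, 33.7, 357 and 30.8 CPM at Endpoint, against 671, 468, 362, 395 and 680 CPM in Vehicle (-2.58, SE 0.66, adjusted p = 0.0101). The highest library, again 49843, lay just under the lowest Vehicle library, and the others were at 41.6 CPM or less.

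Sox10, a factor of the same lineage, did not pass the test (-1.42, SE 0.99, adjusted p = 0.302). It was 1.71 to 13.0 CPM in 5 Endpoint libraries and 311 CPM in 49843, against 118 to 213 CPM in Vehicle. Cspg4, which encodes the progenitor proteoglycan NG2, averaged 36.0 ± 51.8 CPM in the 6 Endpoint libraries and 478 ± 239 CPM in the 5 of Vehicle (mean ± SD; -3.74, SE 0.80, adjusted p = 0.00406). Ncan, a brain matrix proteoglycan, averaged 167 ± 92.7 CPM at Endpoint, against 1137 ± 555 CPM in Vehicle (-2.77, SE 0.40, adjusted p = 0.00055). In 5 of the Endpoint libraries the mean log2 level of the list ran from 3.02 to 3.73, in 49843 it was 6.17, and in Vehicle it ran from 5.76 to 7.22. Mouse 49843 was below every Vehicle library for 9 of the 24 genes, inside their range for 12 and above it for 3.

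**Figure D1:**
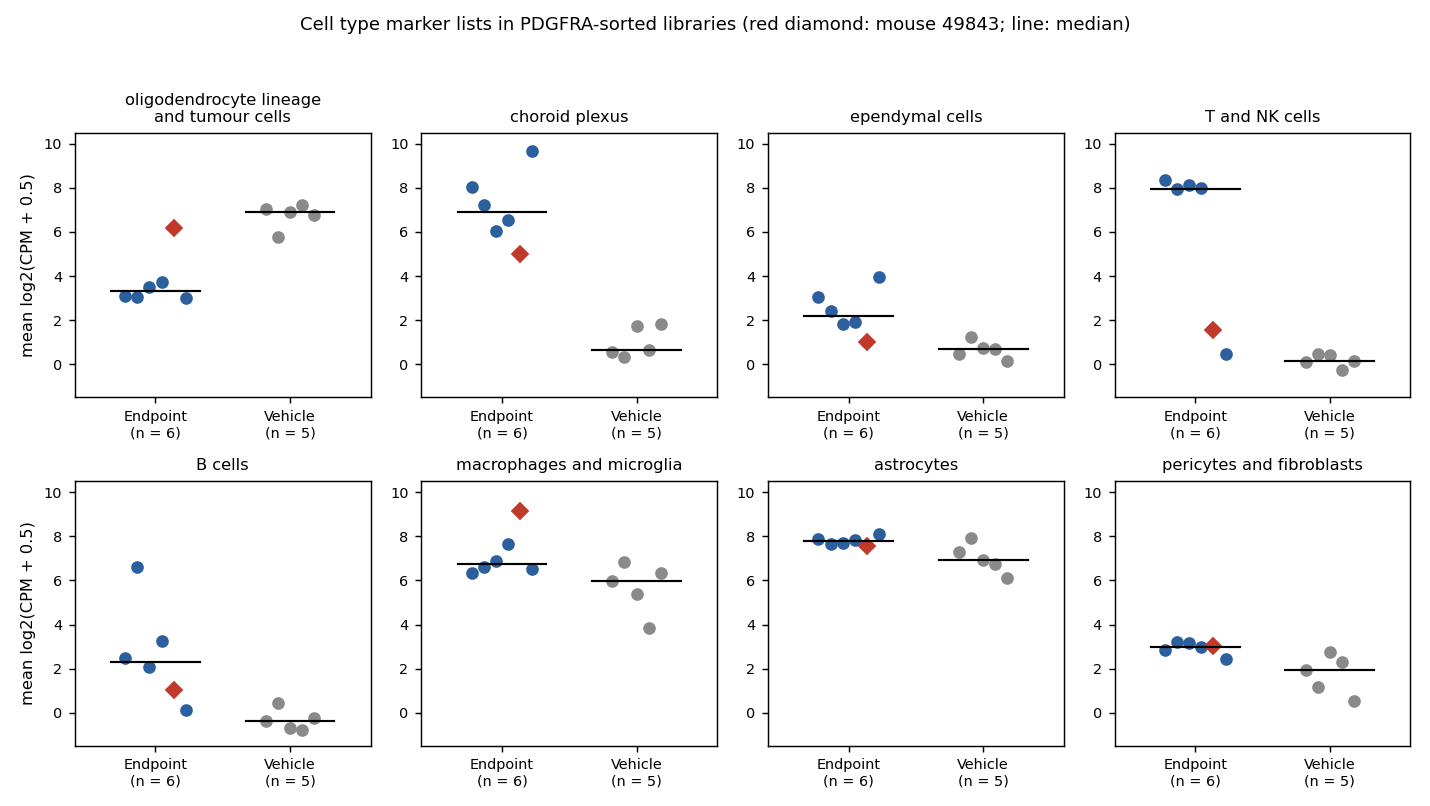
Mean log2(CPM + 0.5) of the genes in 8 cell type lists, with a point per library, Endpoint left and Vehicle right, at TMM scaling. Lines are medians and the red diamond is mouse 49843, which sits at 6.17 in the tumour list beside Vehicle libraries of 5.76 to 7.22, while choroid plexus genes are higher in all 6 Endpoint libraries and T and NK cell genes are high in 4.

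A sorting of the genes came from Rebound mice, not compared here, although their TC libraries share in the model's filter, scaling and spread. There, TAM (CD11b+ Gr1- macrophage) and TC (PDGFRA+) libraries separated 1409 macrophage-enriched genes (10.1% of 13901 tested) and 2299 tumour-sort-enriched genes (16.5%), at a fold of at least 4. Among the tumour-sort-enriched genes tested at Endpoint, 852 of 2298 (37.1%) were lower and 174 (7.57%) higher, with a median of -1.02. Among the macrophage-enriched genes, 11 of 1272 (0.865%) were lower and 471 (37.0%) higher, with a median of 1.49. Of the genes of neither class 12.6% were lower and 11.3% higher, with a median of -0.00269. TC Rebound mouse 49827 carries T cell genes, and without it there were 1856 macrophage-enriched and 2422 tumour-sort-enriched genes.

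**Figure D2:**
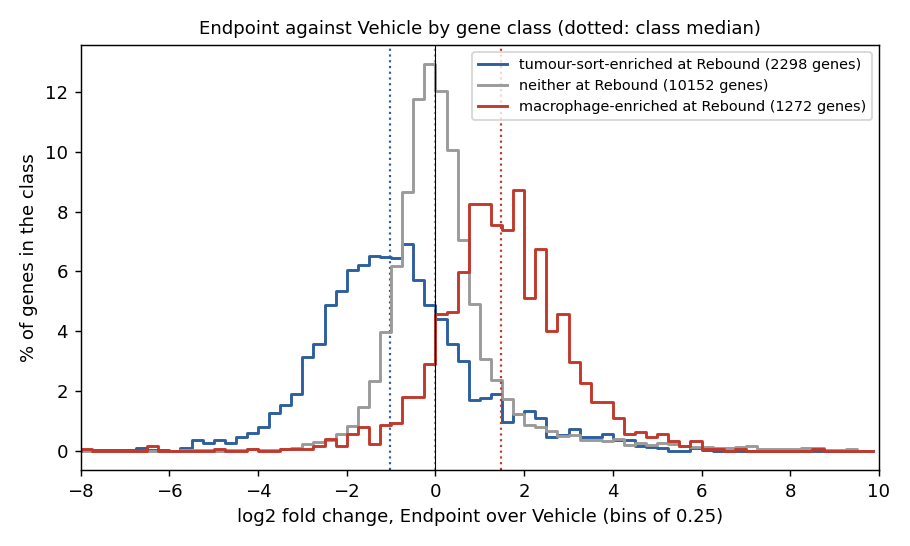
Distribution of the log2 fold change, Endpoint over Vehicle at TMM scaling, as a percentage of the genes of each class per bin of 0.25. Classes come from Rebound TAM against Rebound TC libraries, and dotted lines are class medians, at -1.02 for tumour-sort-enriched, -0.00269 for neither and 1.49 for macrophage-enriched genes.

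The Endpoint libraries differed in how many of the called genes they moved. Of the 2212 genes called lower, 777 (35.1%) were inside the Vehicle range in mouse 49843, against 223 to 346 in each of the other 5. Of the 2093 called higher, 601 were inside that range in 49843 and 468 in 49845, against 81 to 181 in the other 4. Endpoint and Vehicle libraries did not overlap at all for 2111 genes, 14.1% of those tested.

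Nearly all choroid plexus genes were higher in every Endpoint library. The choroid plexus makes cerebrospinal fluid in the ventricles. Of 22 listed genes 21 were higher, with a median of 7.14, and for all 21 every Endpoint library was above every Vehicle library, where 6.66% of all genes tested were. The count was 21 without 49843 and without 49845 as well. Ttr, which encodes the thyroid hormone carrier transthyretin, was 73874, 41584, 23845, 24914, 6121 and 210446 CPM at Endpoint, against 8.44, 22.4, 176, 24.0 and 597 CPM in Vehicle (8.58, SE 2.08, adjusted p = 0.00845). It took 0.552 to 14.0% of all counts of an Endpoint library. Enpp2, which encodes autotaxin, ran at 2758 to 100260 CPM (median 16185) at Endpoint, against 316, 65.8, 718, 682 and 349 CPM in Vehicle (6.08, SE 1.00, adjusted p = 0.00102). F5, coagulation factor V, ran at 38.2 to 830 CPM (median 146) at Endpoint and at 0.0654 to 1.51 CPM in Vehicle (8.62, SE 1.21, adjusted p = 0.000604). For these 3 genes mouse 49845 was the highest and 49843 the lowest of the Endpoint libraries. Lmx1a, the 1 member not called (it was chosen after its values were seen), had a log2 fold change of 4.40 and an adjusted p of 0.0804.

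Genes of motile cilia, carried by the ependymal cells that line the ventricles, rose in part. Of 23 tested, 10 were higher and 0 lower, with a median of 1.99, and the count was 5 without 49845 and 6 without Vehicle mouse 57682. Rsph1, a radial spoke protein, ran at 3.71 to 182 CPM (median 33.3) at Endpoint and 0.24 to 3.55 CPM in Vehicle (4.79, SE 0.99, adjusted p = 0.00338). The groups did not overlap, although the lowest Endpoint library, 49843, was just above the highest Vehicle library. Tekt1, a tektin of the ciliary axoneme, was 49.3, 21, 6.22, 17.9, 0 and 156 CPM at Endpoint, against 3.92, 2.24, 3.13, 2.21 and 2.05 CPM in Vehicle (3.94, SE 0.99, adjusted p = 0.00934). Mouse 49843, the shallowest Endpoint library, had no count of Tekt1. Foxj1, the master factor of motile cilia, was 24.8 CPM in 49845 and 0.309 to 6.67 CPM in the other 5, against 0 to 4.71 CPM in Vehicle (2.31, SE 1.23, adjusted p = 0.169).

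T and NK cell genes split the Endpoint libraries. Of 23 tested, 21 were higher and 0 lower, with a median of 8.67, the largest of the marker lists, yet only 4 of the 23 had every Endpoint library above every Vehicle library. Cd3e, a chain of the T cell receptor complex, was 890, 640, 658, 756, 10.1 and 1.28 CPM at Endpoint, against 1.31, 1.6, 1.16, 0.394 and 1.33 CPM in Vehicle (8.74, SE 2.27, adjusted p = 0.0117). Cd8a, the coreceptor of cytotoxic T cells, was 380 to 608 CPM in the same 4 mice (49823, 49825, 49830 and 49831), 0 in 49843 and 1.28 CPM in 49845, against 0 to 0.719 CPM in Vehicle (10.31, SE 3.02, adjusted p = 0.0206). Without Vehicle mouse 57682 its adjusted p was 0.0517. The fitted fold of such a gene depends on Vehicle counts near 0. Ptprc, the leukocyte antigen CD45, was 967 to 1297 CPM in those 4 mice, 107 CPM in 49843 and 29.98 CPM in 49845, against 4.73 to 21.4 CPM in Vehicle (5.74, SE 1.67, adjusted p = 0.0197). For this gene all 6 were above Vehicle. Cxcr6, a chemokine receptor of tissue T cells, ran at 1263 to 1818 CPM in the 4 and at 0.53 and 4.50 CPM in 49843 and 49845, against 0.523 to 3.33 CPM in Vehicle (9.16, SE 2.54, adjusted p = 0.0159).

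B cell genes were highest in mouse 49825. Of 8 tested 6 were higher, with a median of 6.73. All 8 were above every Vehicle library in 49825 and 49831, 7 in 49823 and in 49830, 4 in 49843 and 3 in 49845. The 6 lost their call in edgeR's test without mouse 49825. The count was 2 to 3 without 49823, 49830, 49831 or Vehicle mouse 57682. Cd79a, a part of the B cell receptor, was 163 CPM in 49825 and 0 to 8.56 CPM in the others, against 0.232 to 1.90 CPM in Vehicle, and did not pass the test (adjusted p = 0.0576).

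Macrophage genes were present in both groups. All 20 listed genes had a positive log2 fold change, with a median of 1.69, but 2 passed the test. That was under the 14.0% of all genes tested that were called higher. The count was 1 without 49831, 49843 or any Vehicle mouse but 54363, and 10 when Rebound mouse 49827 was left out of the model, a setting chosen after seeing the data. Tmem119, a marker of microglia, ran at 56.5 to 449 CPM (median 73.0) at Endpoint, against 36.2, 61.3, 26.4, 8.24 and 40.8 CPM in Vehicle (2.03, SE 0.59, adjusted p = 0.0187). Csf1r, the drug target, ran at 200 to 1449 CPM at Endpoint, against 31.2 to 281 CPM in Vehicle and was not called (1.68, SE 0.89, adjusted p = 0.169). As a share of the level in the TAM library of the same mouse, the median macrophage marker stood at 3.86, 4.19, 6.13, 8.06, 23.2 and 4.87% at Endpoint, against 1.18, 3.21, 1.48, 0.466 and 2.51% in Vehicle. Mouse 49843 was highest for macrophage genes, with all 20 above every Vehicle library.

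Both chains of type I collagen, a matrix protein of fibroblasts, were higher in all 6 Endpoint libraries. Of 18 pericyte and fibroblast genes 5 were higher and 2 lower, with a median of 1.19. The lower count was under the 14.8% of all genes tested that were lower, and 14.0% were higher. Col1a1, one of these chains, was 47.3, 99.0, 179, 45.8, 37.6 and 19.7 CPM at Endpoint, against 0.72, 1.36, 7.35, 2.60 and 1.5 CPM in Vehicle (4.70, SE 1.05, adjusted p = 0.00542). Col1a2, the other chain, averaged 218 ± 109 CPM at Endpoint, against 13.7 ± 11.3 CPM in Vehicle (3.99, SE 0.91, adjusted p = 0.00614), and Dcn, the proteoglycan decorin, 160 ± 86.1 CPM at Endpoint, against 19.7 ± 22.8 CPM in Vehicle (3.02, SE 0.87, adjusted p = 0.0185). Neither gene overlapped between the groups. Tagln, an actin-binding protein of smooth muscle, moved the other way, at 0.428 to 11.1 CPM at Endpoint, against 12.4 to 34.9 CPM in Vehicle (-2.79, SE 0.77, adjusted p = 0.0142). Of 16 endothelial genes 4 were higher, among them Cdh5, the cadherin of endothelial junctions, at 5.30 to 25.7 CPM at Endpoint, against 0.167 to 3.21 CPM in Vehicle (3.18, SE 0.76, adjusted p = 0.00698).

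Astrocyte genes were higher in part. Of 18, 5 were higher and 2 lower, with a median of 0.37. Over all genes tested 14.0% were higher and 14.8% lower, so the lower count of this list was under its share. The higher ones were 3 without 49823, 49830, 49831, 49845 or any Vehicle mouse but 54363, and 1 was lower without Vehicle 57682. The gap junction genes Gja1 and Gjb6 rose: Gja1 averaged 523 ± 127 CPM at Endpoint, against 116 ± 86.1 CPM in Vehicle (2.17, SE 0.47, adjusted p = 0.00406), and Gjb6 averaged 281 ± 117 CPM at Endpoint, against 23.7 ± 10.1 CPM in Vehicle (3.57, SE 0.71, adjusted p = 0.00278). Gfap, the astrocyte filament, ran at 520 to 3162 CPM at Endpoint, against 1800 to 11048 CPM in Vehicle (-1.94, SE 1.10, adjusted p = 0.199). Aqp4, the water channel of astrocyte endfeet, ran at 46.7 to 149 CPM at Endpoint, against 29.8 to 177 CPM in Vehicle (adjusted p = 0.869). Of the neuron list 1 of 18 was called higher, under the 14.0% of all genes tested. It was Snap25, a synaptic vesicle fusion protein, at 160 to 303 CPM at Endpoint, against 41.7 to 141 CPM in Vehicle (1.30, SE 0.43, adjusted p = 0.033). That call was lost without 49830, 49831 or Vehicle 54363, 57098 or 64247. Of 16 myelinating oligodendrocyte genes 2 were higher and 1 lower, under the shares of all genes tested (14.0% higher, 14.8% lower). The higher count was 6 when Rebound mouse 49827 was left out of the model, a setting chosen after seeing the data, and 1 without 49831 or Vehicle 57098, 57682 or 64247, while 2 were lower without 49843 or Vehicle 54363. Mbp, a main myelin protein, ran at 20902 to 32486 CPM at Endpoint, against 11063, 17051, 3290, 2155 and 3314 CPM in Vehicle. The groups did not overlap for Mbp, but the test did not call it (1.75, SE 0.90, adjusted p = 0.156).

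Mitotic genes fell with the tumour genes, and many of their promoters hold the same pair of motifs. Of 34 G2/M and mitosis genes 28 were lower and 0 higher, with a median of -2.19 (31 without 49843). Of 35 G1/S and DNA replication genes 22 were lower and 0 higher, with a median of -1.43. Mitotic genes are repressed in resting cells through a short element with the letters TTTGAA, known as CHR, and are driven by the factor NF-Y, which binds CCAAT boxes. The promoters of the 4 called genes with the smallest adjusted p that hold both motifs within 200 bases before a listed start, chosen after their values were seen, are shown with both motifs in capitals on either strand. They are from RefSeq on GRCm38.p6, each 5′ to 3′ on the strand of its gene, and the choice did not cover every chromosome.
Prc1, chr7:80294276-80294475, plus strand: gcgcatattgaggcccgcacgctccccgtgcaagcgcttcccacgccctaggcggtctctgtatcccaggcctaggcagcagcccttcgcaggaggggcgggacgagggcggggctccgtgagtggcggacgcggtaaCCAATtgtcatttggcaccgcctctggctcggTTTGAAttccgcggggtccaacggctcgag
Ccnb2, chr9:70421555-70421754, minus strand: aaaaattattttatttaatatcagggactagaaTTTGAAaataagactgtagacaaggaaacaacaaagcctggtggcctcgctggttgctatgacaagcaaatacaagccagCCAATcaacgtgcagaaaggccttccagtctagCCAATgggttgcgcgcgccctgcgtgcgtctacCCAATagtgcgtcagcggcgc
Cdk1, chr10:69352913-69353112, minus strand: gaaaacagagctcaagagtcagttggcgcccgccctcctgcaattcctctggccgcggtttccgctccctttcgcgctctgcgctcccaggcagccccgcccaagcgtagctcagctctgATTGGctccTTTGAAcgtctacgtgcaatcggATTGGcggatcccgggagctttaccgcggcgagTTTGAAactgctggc
Ube2c, chr2:164769729-164769928, plus strand: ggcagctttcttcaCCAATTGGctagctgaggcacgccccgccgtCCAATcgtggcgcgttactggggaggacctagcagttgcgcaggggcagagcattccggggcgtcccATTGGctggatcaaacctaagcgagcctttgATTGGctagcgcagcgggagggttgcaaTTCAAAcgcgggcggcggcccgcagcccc

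Within 250 bases before to 50 after any listed start and on either strand, TTTGAA was found in 21 of the 28 matched G2/M promoters (75%), in 4 of 27 G1/S promoters (14.8%) and in 14.3% of the 10595 promoters of tested genes. CCAAT was found in 75, 59.3 and 42.6% of them. TTTGAA can share its first letter with the last letter of CCAAT, and a match is a description of the sequence. Prc1, a cross-linker of the mitotic spindle midzone, was 41.5, 22.3, 20.6, 17.6, 87.0 and 18.0 CPM at Endpoint, against 158, 114, 188, 231 and 255 CPM in Vehicle (-2.46, SE 0.46, adjusted p = 0.00186). Plk1, a mitotic kinase, ran at 3.21 to 26.0 CPM (median 5.92) at Endpoint, against 83.1, 64.9, 67.3, 69.5 and 106 CPM in Vehicle (-3.02, SE 0.57, adjusted p = 0.00197). For both, 49843 was the highest Endpoint library and still below every Vehicle library. That mouse was below all Vehicle libraries for 20 of the 34 G2/M genes. Mki67, the proliferation marker Ki-67, was 128, 34.1, 41.6, 68.1, 168 and 19.1 CPM at Endpoint, against 93.5, 138, 175, 214 and 147 CPM in Vehicle, and was not called (-1.01, SE 0.47, adjusted p = 0.117). Of the G1/S genes, Rrm1, the large subunit of ribonucleotide reductase, averaged 88.9 ± 51.6 CPM at Endpoint, against 292 ± 64.7 CPM in Vehicle (-1.72, SE 0.36, adjusted p = 0.00323), and Tyms, thymidylate synthase, 27.1 ± 11.1 CPM at Endpoint, against 74.3 ± 12.6 CPM in Vehicle (-1.46, SE 0.28, adjusted p = 0.00229).

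Another motif was looked for in the ependymal list. The letters GTTGCCA, a short site of RFX factors, were found in 3 of 14 matched ependymal promoters (21.4%) and in 4.62% of those of tested genes. GTTGCCA can overlap CCAAT. The called members Tekt1 and Lrriq1, which hold it in the 200 bases before a start and were chosen after their values were seen, are shown with those letters in capitals. Lrriq1, a leucine-rich repeat protein, averaged 9.94 ± 16.8 CPM at Endpoint, against 0.887 ± 0.878 CPM in Vehicle (3.49, SE 1.22, adjusted p = 0.0405) and stood at 1.80 without 49845 (adjusted p = 0.21); it also missed the threshold without 49823 or any Vehicle mouse but 54363.
Tekt1, chr11:72361883-72362082, minus strand: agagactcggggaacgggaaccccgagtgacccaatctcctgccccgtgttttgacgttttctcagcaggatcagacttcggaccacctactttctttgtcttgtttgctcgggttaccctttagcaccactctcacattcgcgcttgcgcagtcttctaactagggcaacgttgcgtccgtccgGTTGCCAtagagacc
Lrriq1, chr10:103236323-103236522, minus strand: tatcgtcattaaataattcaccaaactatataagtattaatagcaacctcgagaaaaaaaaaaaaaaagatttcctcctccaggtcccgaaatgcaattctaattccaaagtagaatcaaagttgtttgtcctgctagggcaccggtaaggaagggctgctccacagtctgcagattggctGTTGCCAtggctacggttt

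Several output genes of the PDGF and ERK pathway were low in every Endpoint library, mouse 49843 included. Of 24 tested, 12 were lower and 2 higher, with a median of -1.70, and 9 had every Endpoint library below every Vehicle library, where 7.43% of all genes tested did. The 2 higher genes were under the 14.0% of all genes tested that were higher. Spry4, an inhibitor that ERK induces, was 0.556, 0.189, 0, 0.309, 1.59 and 0.428 CPM at Endpoint, against 232, 144, 252, 244 and 127 CPM in Vehicle (-8.74, SE 1.40, adjusted p = 0.000994). In all 6 Endpoint libraries it was at or near 0. Spry1 (chromosome 3, 37639947 to 37644598, plus strand), its relative, was 2.41, 1.33, 2.33, 1.55, 7.95 and 4.50 CPM at Endpoint, against 74.0, 38.7, 83.9, 118 and 73.4 CPM in Vehicle (-4.57, SE 0.78, adjusted p = 0.00126). Phlda1, another gene induced by ERK, was 5.37, 3.03, 10.501, 7.43, 4.77 and 2.57 CPM at Endpoint, against 136, 88.8, 107, 79.1 and 211 CPM in Vehicle (-4.48, SE 0.68, adjusted p = 0.000757). Mouse 49843 was not set apart for Phlda1. Its Olig1 lay just under all Vehicle libraries and its Sox10 above them. Its Olig2, at 31.8 CPM, was under the lowest Vehicle library (94.7 CPM). Mouse 49843 was below every Vehicle library for 12 of the 24 PDGF and ERK genes, inside their range for 9 and above it for 3. For the 24 genes of the tumour list these counts were 9, 12 and 3.

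Ccnd1, cyclin D1, which carries growth signals to the cell cycle, was 27.1, 39.6, 25.7, 28.8, 311 and 24.2 CPM at Endpoint, against 2052, 2994, 1113, 1170 and 1356 CPM in Vehicle (-4.52, SE 0.83, adjusted p = 0.00193). Here 49843 was the highest Endpoint library and below all Vehicle libraries. The phosphatase gene Dusp6 ran at 10.3 to 143 CPM at Endpoint, against 219 to 420 CPM in Vehicle, with no overlap, and missed the threshold (-2.10, SE 0.83, adjusted p = 0.0681). Pdgfb, the ligand gene carried by the tumour, ran at 7.95 to 27.2 CPM at Endpoint, against 11.2 to 20.9 CPM in Vehicle (0.04, SE 0.37, adjusted p = 0.949); whether reads of the introduced gene reach the mouse symbol was not tested. Of the genes that went up, Egfr, the epidermal growth factor receptor, averaged 39.5 ± 20.3 CPM at Endpoint, against 8.68 ± 4.0 CPM in Vehicle (2.18, SE 0.54, adjusted p = 0.00872). Pdgfc, a ligand of PDGFRA, averaged 17.9 ± 18.2 CPM at Endpoint, against 5.10 ± 2.08 CPM in Vehicle (1.81, SE 0.59, adjusted p = 0.0304), with 54.4 CPM in 49845, without which its log2 fold change was 1.03 and its call was lost (adjusted p = 0.118). The call was also lost without Vehicle 54359, 57682 or 64247.

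Immediate early genes, which ERK and other signals switch on within minutes, moved in part. Of 22 tested 6 were lower and 2 higher, with a median of -0.57, and 1 was higher without 49823, 49825, 49831 or any Vehicle mouse but 57098. Over all genes tested 14.8% were lower and 14.0% higher, so the higher count was under its share. Fos was 3.15, 4.73, 11.3, 3.09, 33.4 and 3.85 CPM at Endpoint, against 129, 158, 255, 151 and 218 CPM in Vehicle (-4.23, SE 0.70, adjusted p = 0.00101). Egr1 ran at 1.17 to 30.8 CPM (median 10.46) at Endpoint, against 181, 179, 281, 200 and 217 CPM in Vehicle (-4.12, SE 0.79, adjusted p = 0.00239). Both are also known to respond to tissue handling, whose part was not tested, and their levels did not overlap between the groups.

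**Figure D3:**
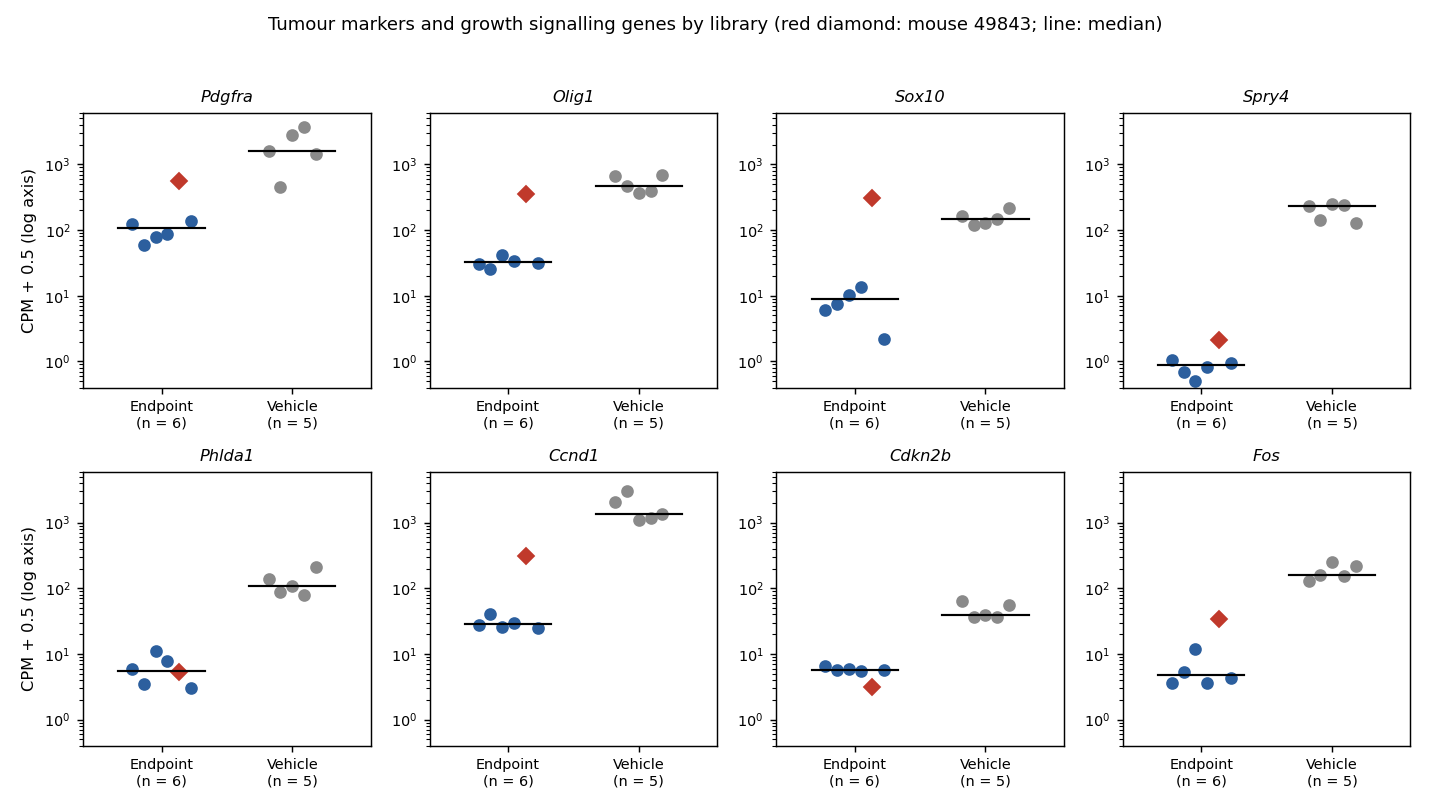
CPM plus 0.5 on a log axis for 8 genes, with a point per library, Endpoint left and Vehicle right, at TMM scaling, and lines at the medians. Mouse 49843 (red diamond) is just under every Vehicle library for Olig1 and above them all for Sox10. It is below every Vehicle library for Spry4, Phlda1, Ccnd1, Cdkn2b and Fos.

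Inhibitors of cyclin-dependent kinases changed in opposite directions. Of 15 genes, which include the D-type cyclins, their kinases and the RB family, 7 were lower and 3 higher. Cdkn2b (chromosome 4, 89306299 to 89311039, minus strand), which encodes p15 and blocks CDK4 and CDK6, was 6.12, 5.30, 5.44, 4.95, 2.65 and 5.14 CPM at Endpoint, against 64.0, 36.1, 38.8, 35.6 and 55.6 CPM in Vehicle (-3.21, SE 0.39, adjusted p = 0.000251). Its neighbour Cdkn2a averaged 2.02 ± 1.30 CPM at Endpoint, against 7.92 ± 4.0 CPM in Vehicle (-1.99, SE 0.52, adjusted p = 0.0111), and Cdkn1a, which encodes p21, 23.7 ± 7.93 CPM at Endpoint, against 73.1 ± 26.9 CPM in Vehicle (-1.63, SE 0.36, adjusted p = 0.00468). Cdkn1c, which encodes p57, was 86.5, 69.3, 53.7, 41.5, 39.2 and 280 CPM at Endpoint, against 3.01, 2.56, 2.40, 1.74 and 1.22 CPM in Vehicle (5.44, SE 0.75, adjusted p = 0.000473). Its highest library was 49845, as for the choroid plexus genes. Cdk4 averaged 198 ± 77.6 CPM at Endpoint, against 663 ± 109 CPM in Vehicle (-1.74, SE 0.25, adjusted p = 0.000562). Of 21 targets of p53, 8 were lower and 4 higher, with a median of -0.01. Plk2, a stress kinase, averaged 60.1 ± 34.7 CPM at Endpoint, against 564 ± 108 CPM in Vehicle (-3.23, SE 0.64, adjusted p = 0.00272), while Sesn1, a sestrin, averaged 140 ± 28.2 CPM at Endpoint, against 58.4 ± 4.90 CPM in Vehicle (1.26, SE 0.27, adjusted p = 0.00343).

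Synaptic genes and some progenitor genes fell as well. Of 24 neural stem and progenitor genes 8 were lower and 4 higher, and the lower ones were 5 without 49825, 49830 or Vehicle 57098 or 64247. The higher ones were 2 without 49830 or Vehicle 54363 and 1 without 49823, 49825, 49831 or Vehicle 57098, 57682 or 64247. Nes, the progenitor filament nestin, was 0.778 to 4.64 CPM in 5 Endpoint libraries and 44.5 CPM in 49843, against 62.9 to 190 CPM in Vehicle (-3.43, SE 0.87, adjusted p = 0.0102). Sox11, a factor of immature neural cells, averaged 38.2 ± 31.6 CPM at Endpoint, against 378 ± 176 CPM in Vehicle (-3.31, SE 0.49, adjusted p = 0.000645). Of 24 glutamate receptor and synaptic adhesion genes 14 were lower and 1 higher, with a median of -1.82, and 9 were lower without Vehicle mouse 57682. The higher one lost its call without any single library but 49843, 49845 or Vehicle 54363. Nlgn3, a synaptic adhesion protein, ran at 9.28 to 54.6 CPM (median 20.6) at Endpoint, against 227, 70.6, 489, 419 and 231 CPM in Vehicle (-3.52, SE 0.58, adjusted p = 0.000988). Mouse 49843 was inside the Vehicle range for 19 of these 24 genes.

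Of the metabolic lists, cholesterol synthesis had the most called genes. Of 23 genes of cholesterol synthesis 12 were lower and 0 higher, with a median of -0.85, among them Mvd, a decarboxylase of the pathway, at 14.7 ± 4.97 CPM at Endpoint, against 45.2 ± 11 CPM in Vehicle (-1.63, SE 0.28, adjusted p = 0.00114). Of 30 genes of glycolysis and hypoxia 4 were lower and 2 higher, with a median of -0.49. Both counts were under the shares of all genes tested, 14.8% lower and 14.0% higher. The lower ones were 7 without 49845 and 2 without Vehicle 64247, and the higher ones were 1 without 49825, 49830, 49831 or Vehicle 54359, 57098 or 57682. Vegfa, the vascular growth factor induced by low oxygen, averaged 7.38 ± 4.05 CPM at Endpoint, against 30.8 ± 7.94 CPM in Vehicle (-2.06, SE 0.48, adjusted p = 0.0063). Car12, a carbonic anhydrase that is also in the choroid plexus list, averaged 409 ± 545 CPM at Endpoint, against 2.25 ± 2.76 CPM in Vehicle (7.51, SE 1.57, adjusted p = 0.00371). Of 37 genes of oxidative phosphorylation 2 were higher and 0 lower, also under the shares of all genes tested. Both lost their call without 49845 or Vehicle 54359, 57098 or 57682. Without 49845, 3 were lower. In that library all 37 were above every Vehicle library.

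The IGF system, named in the title of the series, changed in its ligands and binding proteins. Of 13 genes 6 were higher and 1 lower, with a median of 1.25. Igf1r, the receptor, ran at 26.0 to 42.9 CPM at Endpoint, against 23.7, 58.0, 61.6, 51.1 and 21.5 CPM in Vehicle, and was not called (-0.49, SE 0.28, adjusted p = 0.202). Igf1, a ligand of that receptor, averaged 13.5 ± 10.7 CPM at Endpoint, against 2.94 ± 2.26 CPM in Vehicle (2.20, SE 0.72, adjusted p = 0.0306), and its call was lost without 49830, 49843 (highest in macrophage genes) or any Vehicle mouse but 54363. Igf2, the other ligand, was 324, 212, 199, 185, 48.8 and 1085 CPM at Endpoint, against 1.64, 0.399, 15.8, 4.10 and 5.55 CPM in Vehicle (5.95, SE 1.04, adjusted p = 0.00148). As with Ttr, mouse 49845 was highest and 49843 lowest; the part of choroid plexus RNA in its rise was not tested. Igfbp5 averaged 611 ± 437 CPM at Endpoint, against 74.5 ± 57.1 CPM in Vehicle (3.04, SE 0.70, adjusted p = 0.00616), and Igfbp6 averaged 119 ± 83.5 CPM at Endpoint, against 10.2 ± 11.9 CPM in Vehicle (3.54, SE 0.71, adjusted p = 0.00287). Igfbp3, another binding protein, was the one that fell, at 1.07 to 17.5 CPM at Endpoint, against 124.92 to 213 CPM in Vehicle (-4.42, SE 0.82, adjusted p = 0.00194).

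Genes of MHC class I presentation, which loads peptides for CD8 T cells, were highest in the 4 libraries with T cell genes. Of 18, 10 were higher and 0 lower, with a median of 2.42. B2m, the light chain, was 3528, 3350, 3451, 4042, 1972 and 797 CPM at Endpoint, against 408, 663, 809, 238 and 386 CPM in Vehicle (2.51, SE 0.58, adjusted p = 0.00607). H2-K1, a heavy chain with near-identical relatives, ran at 1865 to 2299 CPM in the 4, 464 CPM in 49843 and 172 CPM in 49845, against 59.4 to 273 CPM in Vehicle (3.73, SE 0.92, adjusted p = 0.00918). The summed T and NK cell level was 9835 to 16505 CPM in those 4, 116 CPM in 49843 and 32.1 CPM in 49845, against 13.5 to 33.5 CPM in Vehicle, and its part in these changes was not tested. Of 30 type I interferon genes 3 were higher and 0 lower, under the 14.0% of all genes tested that were higher. The 3 lost their call without Vehicle 54359 or 57682. The count was 7 without 49843 or Vehicle 57098 and 9 without 49845. Of 25 cytokine and chemokine genes 8 were higher and 3 lower, among them Cxcl12, a stromal chemokine, at 45.7 ± 29.1 CPM at Endpoint, against 6.23 ± 3.47 CPM in Vehicle (2.87, SE 0.66, adjusted p = 0.0056).

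**Figure D4:**
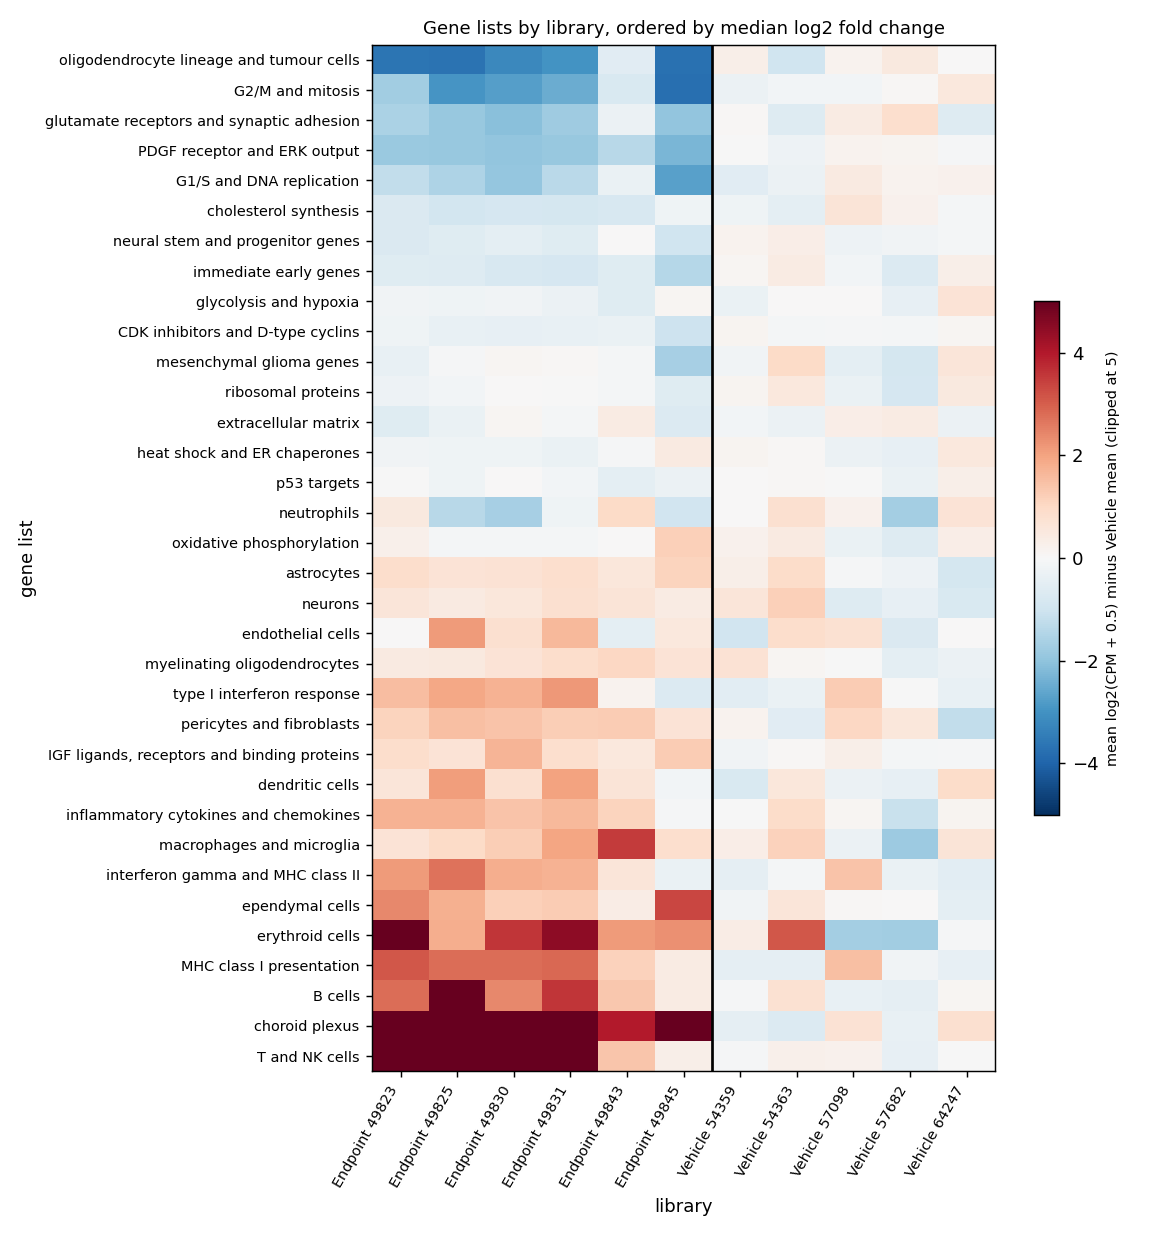
Mean log2(CPM + 0.5) of each of 34 gene lists minus its Vehicle mean, at TMM scaling, with Endpoint libraries left of the line and Vehicle libraries right, clipped at 5. Lists run from the tumour list (median log2 fold change -2.73) at the top to T and NK cells (8.67) at the bottom, and the column of mouse 49843 is pale for tumour and synaptic genes and blue for the PDGF and ERK list.

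Among the losses over all genes, several with the smallest adjusted p are in no list. Rab31, a trafficking GTPase, was 144, 152, 205, 166, 333 and 182 CPM at Endpoint, against 1425, 1522, 1091, 1298 and 816 CPM in Vehicle (-2.64, SE 0.24, adjusted p = 7.29e-05). Cnrip1, which binds the cannabinoid receptor, averaged 27.8 ± 5.07 CPM at Endpoint, against 102 ± 12.7 CPM in Vehicle (-1.87, SE 0.18, adjusted p = 9.1e-05). Pcyt1b, an enzyme of phosphatidylcholine synthesis, averaged 22.7 ± 5.10 CPM at Endpoint, against 102 ± 18.2 CPM in Vehicle (-2.16, SE 0.22, adjusted p = 0.000114). In these 3, and in Nsg1, an endosomal protein of neural cells (-2.98, SE 0.34, adjusted p = 0.000229), all 6 Endpoint libraries lay below all Vehicle libraries.

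Among the gains, Npr3 (chromosome 15, 11839896 to 11907287, minus strand), the clearance receptor of natriuretic peptides, was 53.4, 71.2, 114, 87.3, 65.2 and 97.2 CPM at Endpoint, against 0.589, 0.879, 0.812, 0.631 and 0.50 CPM in Vehicle (6.88, SE 0.72, adjusted p = 0.000114). Neither 49843 nor 49845 was at the edge of its Endpoint range. Sfrp1, a secreted Wnt antagonist, averaged 70.7 ± 41.2 CPM at Endpoint, against 3.98 ± 1.93 CPM in Vehicle (4.15, SE 0.50, adjusted p = 0.000251). Notch2, a Notch receptor, averaged 169 ± 43.5 CPM at Endpoint, against 15.7 ± 6.03 CPM in Vehicle (3.43, SE 0.45, adjusted p = 0.000388). Tmem64, a membrane protein, averaged 71.2 ± 20.4 CPM at Endpoint, against 15.1 ± 2.75 CPM in Vehicle (2.23, SE 0.27, adjusted p = 0.000251), and St3gal6, a sialyltransferase, 87.9 ± 18.8 CPM at Endpoint, against 26.5 ± 2.63 CPM in Vehicle (1.73, SE 0.22, adjusted p = 0.000337). All 6 Endpoint libraries were above all Vehicle libraries for these 5 genes.

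To set the losses against tumour content, the libraries were also scaled to 13 oligodendrocyte lineage genes. Their mean log2 level was 1.65 to 2.84 in 5 Endpoint libraries, with up to 3 genes without a count. It was 5.66 in 49843 and 5.25 to 6.57 in Vehicle, so in those 5 libraries the scaling rests on low counts. That scaling moved the median of all genes to 4.09, so most genes then stood higher at Endpoint. Only 40 genes were then called lower, of which 20 are tumour-sort-enriched and 27 had all Endpoint below all Vehicle libraries. Among them were Spry4 (-5.08), Ccnd1 (-1.98), Nes (-1.48), the matrix protein gene Tnc (-2.05) and Olig2 (-2.05), which is itself one of the 13 genes. On this scale Fos stood at -1.04, Igfbp3 at -0.91, Spry1 at -0.51 and Phlda1 at -0.48, and none of these 4 was called, while Pdgfra stood at 0.24 and Cdkn2b at 1.04.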

How the data were processed

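RNA of sorted cells was sequenced with the SMART-Seq kit as paired reads of 50 bases, per the labels' protocols. Per the submitters' processing notes the tools include STAR 2.3.0e and SAMtools, with the build mm10. No counter or gene annotation is named (not given in the sources used here). The deposited table holds whole-number counts per gene symbol for all 32 libraries. The kit does not mark strand, so a gene and its antisense partner cannot be told apart.

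Counts of the 16 TC libraries (6 Endpoint, 5 Rebound, 5 Vehicle) entered edgeR 4.0.16 under R 4.3.3 (filterByExpr, TMM, robust quasi-likelihood), which left 14985 genes, and Endpoint was set against Vehicle with Benjamini-Hochberg adjustment at 0.05. Rebound libraries share in the estimate of the spread. On simulated data with these means the model recovered 67% of 100 genes changed by a fold of 8 and 3% of 100 changed by a fold of 2, with 3 false calls. The simulation held no shift in cell composition between groups, so its false calls do not measure errors from such a shift. List levels are means of log2(CPM + 0.5). Coordinates are GRCm38 from GENCODE M21 and promoters are RefSeq on GRCm38.p6. Replicates are separate mice by their labels. In the Rebound classes 4 mice gave both sorts, a pairing by mouse number in the labels, with correlations of their deviations from the group means of 0.154, 0.0594, 0.0343 and 0.108. The members and the 34 lists were chosen with earlier results of these data known. Named genes are, per list, up to 4 called members with the smallest adjusted p in the majority direction and up to 2 in the other, the 10 called genes per direction with the smallest adjusted p and no overlap, 10 more per direction in no list, and a set of marker genes always given. The alternatives were other scalings, DESeq2 1.42.0, no filter, halved counts, fewer libraries, other class folds and leaving out each library.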

Additional observations from a re-analysis of the deposited data

Results flagged for a closer look

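In 234 groups of libraries examined, 25 had a library whose gap to the others passed Dixon's 95% value, where chance gives about 1 in 20. Values are mean log2(CPM + 0.5) for lists and log2(CPM + 0.5) for genes. Endpoint mouse 49843 stood above the other 5 in the tumour lineage list (6.17) and the glutamate receptor list (4.56), and in Ccnd1 (8.28), Gfap (11.6), Nsg1 (6.75), Olig1 (8.48), Pdgfra (9.10), Sox10 (8.28) and Rn45s (17.5). It stood below them in Cdkn2b (1.66).

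Endpoint mouse 49845 stood apart in oxidative phosphorylation (9.18), cholesterol synthesis (5.92), heat shock and ER chaperones (7.28), CDK inhibitors and D-type cyclins (4.51), mesenchymal glioma genes (3.48), inflammatory cytokines and chemokines (2.55) and immediate early genes (2.58). It was the highest Endpoint library for the first 3 of these lists and the lowest for the other 4.

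Vehicle mouse 57098 was high in type I interferon genes (4.91), interferon gamma and MHC class II genes (4.96), MHC class I genes (6.42), H2-K1 (8.10) and Lmx1a (1.85). Vehicle mouse 57682 was low in Cd3e (-0.16) and Ptprc (2.39), and Vehicle mouse 54363 was low in Cspg4 (6.83).

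Among the Rebound TC libraries, which enter no comparison with Vehicle here, mouse 49827 had T and NK cell genes at 7.88 and B cell genes at 3.23, above every Vehicle library. Pericyte and fibroblast genes were also above every Vehicle library in Rebound mice 49041 (5.75), 49059 (4.79), 49692 (3.84) and 49849 (3.58). In 49827 they stood at 2.38.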

How the results depend on the processing

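The count of called genes was 4305, and it was 3217 to 4929 when each library was left out in turn (2093 higher, 1454 to 2318; 2212 lower, 1763 to 2611). Counts of called list members, 289 in all, ran from 225 to 316. RLE scaling gave 4288, DESeq2 5324, no filter on low counts 4152, Endpoint and Vehicle libraries alone 3931, halved BLZ945 counts 4413, TMM without genes of other cell types 4218 and the model without Rebound mouse 49827 4808, the last chosen after seeing the data. Without Vehicle 54359, 54363 and 64247, also chosen after seeing the data, 2023 genes were called, 677 higher and 1346 lower, with 140 list members. Of the genes named, B2m, Car12, Ccnb2, Cd3e, Cd8a, Cdh5, Cdk1, Cdkn1a, Col1a1, Col1a2, Cxcl12, Cxcr6, Dcn, Egfr, Gjb6, H2-K1, Igf1, Igfbp5, Igfbp6, Lrriq1, Nes, Olig1, Olig2, Pdgfc, Ptprc, Rsph1, Sesn1, Snap25, Tagln, Tekt1, Ttr and Ube2c then lost their call.

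Scaling to the 13 tumour genes gave 13814 calls, 13774 higher and 40 lower, with 606 list members called, by its own construction, since it moves the median of all genes to 4.09. Genes with negative log2 fold changes, among them Dusp6, Gfap, Igf1r, Mki67 and Sox10 that were not called, then took positive ones: Ccnb2 1.75, Cdk1 1.45, Cdk4 2.03, Cdkn1a 2.14, Cdkn2a 1.82, Cdkn2b 1.04, Cnrip1 2.12, Dusp6 1.98, Gfap 1.04, Igf1r 3.35, Mki67 2.64, Mvd 2.52, Ncan 1.14, Nlgn3 0.43, Nsg1 0.85, Olig1 0.23, Pcyt1b 1.97, Pdgfra 0.24, Plk1 0.58, Plk2 1.09, Prc1 1.29, Rab31 1.13, Rrm1 2.03, Sox10 0.16, Sox11 0.22, Tagln 0.029, Tyms 2.37, Ube2c 0.66 and Vegfa 1.81. Pdgfb, which was not called, ran from -0.22 to 0.21 without single libraries, was -0.055 with no filter, and was negative without Endpoint 49823 or 49830 or Vehicle 54359, 54363 or 57098.

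Macrophage-enriched genes numbered 1409 at a fold of 4, 2408 at 2 and 891 at 8. The median macrophage share at Endpoint was 5.5% over the markers and 24.8% over the macrophage-enriched genes, and in Vehicle it was 1.48% over the markers and 6.02% over the macrophage-enriched genes. The cause was not tested. No paired analysis was possible because no mouse gave both an Endpoint and a Vehicle library. In the Rebound classes, where TAM and TC share mice, the replicate block gave 1362 macrophage-enriched genes against 1409, and 1979 tumour-sort-enriched genes against 2299. Endpoint depth, at 4.18 M counts in the shallowest library, that of mouse 49843, limits genes near 0.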
